A study of Homo sapiens with 12 samples.

Results

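The genes examined here encode enzymes and a carrier of fatty acid and triglyceride synthesis in human adrenocortical cells. They were selected by gene symbol from a table of TPM (abundances corrected for transcript length, with a fixed total per library). No measured value entered the selection rule, but the genes were chosen with earlier results of these data known. The 10 genes were SLC25A1, ACLY, ACSS2, ACACA, ACACB, FASN, ME1, GPAM, LPIN1 and PNPLA3, all of them listed among the 60662 genes of the table. Genes entered the tests when 4 or more libraries reached 0.5 TPM, a filter passed by 16815 genes and by 9 of the 10. PNPLA3 did not pass, and for it the values and an exact permutation test are given.

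RNA-seq was performed on NCI-H295R, an established line of human adrenocortical carcinoma cells that produces cortisol. Confluent cultures spent 12 h in serum-free medium and then 24 h with vehicle (VEH, 0.1% DMSO), with 30 µM CJ28 or with 30 µM metyrapone (MET), and 4 libraries were made per group. CJ28 is a benzimidazolylurea derivative, and MET is an inhibitor of 11β-hydroxylase, the enzyme of the last step to cortisol. All 3 groups thus share the cell line, the serum-free medium and the time of treatment, and each compound was tested at 1 dose and 1 time.

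Fatty acids are built in the cytosol from acetyl-CoA. Citrate leaves the mitochondrion through the carrier encoded by SLC25A1 and is split to acetyl-CoA by ATP citrate lyase (ACLY), while ACSS2 makes acetyl-CoA from acetate. Acetyl-CoA carboxylases (ACACA in the cytosol, ACACB at the mitochondrial surface) form malonyl-CoA, which fatty acid synthase (FASN) joins into palmitate with NADPH, supplied in part by malic enzyme 1 (ME1). GPAM attaches the first acyl chain to glycerol 3-phosphate at the mitochondrion, LPIN1 removes phosphate from phosphatidic acid to give diacylglycerol, and PNPLA3 is a lipid droplet protein that acts on triglycerides. Many of these genes are known targets of the transcription factor SREBP-1, the product of SREBF1, and steroid-producing cells keep fatty acids esterified to cholesterol in lipid droplets.

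Every library listed between 29463 and 31016 genes with a TPM above 0, and no pair of libraries was identical. The table gives TPM and no read numbers, so the reads behind a single value are unknown and no counting interval was computed. Nuclear protein-coding genes held 24.3% to 24.8% of TPM in the VEH libraries, 21.3% to 21.4% in CJ28 and 24.1% to 24.6% in MET. The log2 fold change (log2FC) relative to VEH had a median over the tested genes of -0.13 for CJ28 and -0.03 for MET. After division by median-of-ratios factors these medians were 0.01 and 0.00. All 10 adrenocortical marker genes passed the filter of 0.5 TPM in 4 libraries, with a summed level of 456 to 485 TPM in VEH, 288 to 350 in CJ28 and 447 to 463 in MET. Of the 5 adipocyte markers none exceeded 0.17 TPM, ADIPOQ was at 0 in all 12 libraries, and their sum was 0.05 to 0.16 TPM in VEH, 0.07 to 0.14 in CJ28 and 0.02 to 0.21 in MET. Among 4 hepatocyte markers the highest value was 0.70 TPM, for APOA1, and fibroblast, endothelial and leukocyte markers all stayed below 1 TPM. Of the adrenal medulla markers, CHGB reached up to 6.45 TPM, while TH was at 0 throughout. The part of these shifts in the results below was not tested. In such bulk samples, fewer cells of a kind and less RNA per cell cannot be told apart.

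Sequence upstream of the start site was compared because 7 of the tested genes were lower with CJ28 and the other two were not. RefSeq promoter windows for GRCh38.p14 that begin at the start site of the GENCODE canonical transcript were held for 8 of the 10 genes, the exceptions being FASN and PNPLA3. Shown are stretches of 4 genes that were lower in CJ28 (SLC25A1, ACLY, ACSS2 and ACACA) and of the 2 that were not called (ME1 and GPAM), each read 5′ to 3′ on the strand of its gene, from 250 bases before the start site up to the first annotated exon. Capitals mark GC boxes (GGGCGG or its reverse complement CCGCCC) and CCAAT boxes (CCAAT or its reverse complement ATTGG).
SLC25A1: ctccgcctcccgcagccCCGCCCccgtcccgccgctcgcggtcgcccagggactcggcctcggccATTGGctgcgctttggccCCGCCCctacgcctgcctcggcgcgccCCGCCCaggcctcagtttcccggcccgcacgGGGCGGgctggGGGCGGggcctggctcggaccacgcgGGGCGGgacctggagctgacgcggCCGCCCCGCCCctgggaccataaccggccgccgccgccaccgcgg
ACLY: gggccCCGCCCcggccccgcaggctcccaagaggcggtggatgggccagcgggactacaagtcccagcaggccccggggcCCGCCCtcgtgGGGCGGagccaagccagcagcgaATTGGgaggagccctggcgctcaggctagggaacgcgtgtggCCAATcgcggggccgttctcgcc
ACSS2: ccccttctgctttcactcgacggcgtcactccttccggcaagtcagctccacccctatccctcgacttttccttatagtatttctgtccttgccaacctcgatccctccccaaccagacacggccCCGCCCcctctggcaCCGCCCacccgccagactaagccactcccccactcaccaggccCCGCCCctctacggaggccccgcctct
ACACA: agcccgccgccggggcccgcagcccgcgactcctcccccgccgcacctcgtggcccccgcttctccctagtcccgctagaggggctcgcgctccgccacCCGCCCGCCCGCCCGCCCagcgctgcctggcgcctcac
ME1: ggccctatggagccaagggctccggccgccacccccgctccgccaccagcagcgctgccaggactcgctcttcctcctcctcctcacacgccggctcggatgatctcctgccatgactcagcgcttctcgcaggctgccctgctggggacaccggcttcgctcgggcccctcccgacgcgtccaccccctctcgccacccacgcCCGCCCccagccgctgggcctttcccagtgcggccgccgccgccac
GPAM: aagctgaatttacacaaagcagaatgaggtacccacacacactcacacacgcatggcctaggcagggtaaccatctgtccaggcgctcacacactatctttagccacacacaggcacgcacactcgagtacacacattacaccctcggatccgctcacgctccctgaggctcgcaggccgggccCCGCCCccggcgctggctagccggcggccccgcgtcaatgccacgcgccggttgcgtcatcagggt

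The SLC25A1 stretch is chr22:19178740-19178986 on the minus strand, and those of ACLY and ACACA are chr17:41919023-41919201 and chr17:37406950-37407086, also on the minus strand. The ACSS2 stretch is chr20:34876362-34876571 on the plus strand, and those of ME1 (chr6:83431052-83431301) and GPAM (chr10:112183766-112184015) are on the minus strand. The windows of ACLY, ACSS2, GPAM and LPIN1 lie inside the annotated spans of their own genes, upstream of the canonical start. The window of ACACA overlaps the neighbouring gene TADA2A, and that of ACACB overlaps the lncRNA AC007637.1. Within the whole window of 250 bases, GC boxes were found in 7 of the 8 genes, from 1 match in ME1 and GPAM to 8 in SLC25A1, with overlapping matches counted separately. Such a match was present in 42.6% of all 35116 windows. The GC content was 62% to 81.6% in the 7 windows with a GC box and 45.2% in that of ACACB. The part of base composition in these matches was not tested. CCAAT boxes were found in 2 of the 8 genes, with 2 matches in ACLY and 1 in SLC25A1, against 32.0% of all windows. The xenobiotic response core GCGTG, searched on both strands like the others, was found in 5 of the 8 genes and in 32.2% of all windows, with 4 matches in GPAM, 2 each in ACACA and ME1 and 1 each in ACLY and SLC25A1. A sterol regulatory element, the E-box CACGTG, a direct repeat of AGGTCA with any 4 bases between and the amino acid response element TGATGNAAT were found in 0 of the 8 windows, against 0.125%, 6.34%, 0.0142% and 0.888% of all windows. These letters were only searched in this window. The sterol regulatory element was searched in a single form, which occurred in 44 of all 35116 windows. Other forms of it were not searched, so the 0 matches do not show that these windows lack sterol regulatory elements. The windows of ACACB and LPIN1, also lower in CJ28, were searched but are not printed. That of ACACB held none of the 7 motifs. Several of the genes have further start sites, and gene-level TPM does not separate transcripts by their start.

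**Figure D1:**
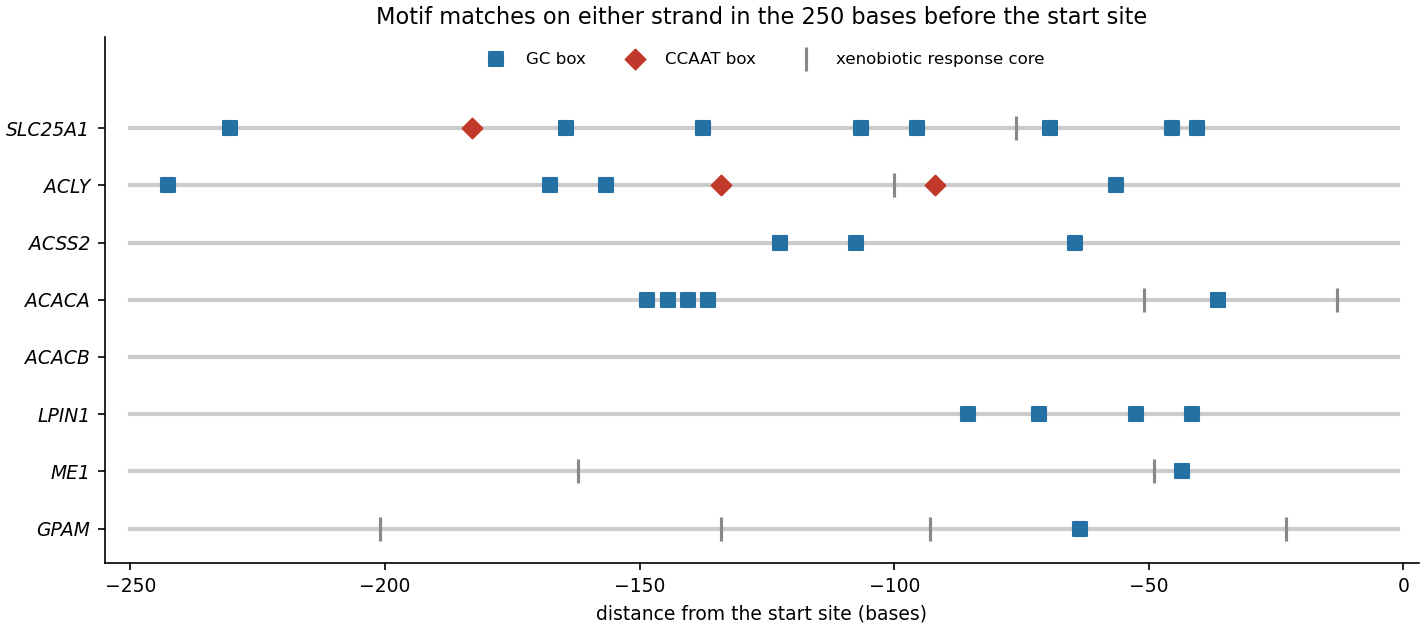
Position of motif matches on either strand (x axis, bases from the start site) in the window of 250 bases before the canonical start of 8 genes (rows). Squares are GC boxes, diamonds CCAAT boxes and vertical ticks the core GCGTG; SLC25A1 carries 8 GC boxes, ME1 and GPAM 1 each, and ACACB no match.

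Treatment with CJ28 lowered 7 of the 9 tested genes, by between 1.45-fold (ACACB) and 2.81-fold (FASN) in mean TPM, and raised none. The genes of acetyl-CoA supply from citrate (SLC25A1, ACLY) and from acetate (ACSS2), of malonyl-CoA formation (ACACA, ACACB) and of palmitate synthesis (FASN) and the phosphatidate phosphatase LPIN1 were lower, whereas the NADPH-forming enzyme ME1 and the acyltransferase GPAM were not called. All 7 calls had an adjusted p under 0.05 in limma on log2(TPM + 0.1), and the largest adjusted p was 0.0015 (ACACB). Across all tested genes, 37.1% were called lower in CJ28 and 19.9% higher. The median log2FC was -0.68 over the 9 genes, against the -0.13 of all genes. After median-of-ratios scaling the 7 calls as lower remained and 1 gene, GPAM, was called higher, where 26.3% of all genes were lower and 29.3% higher. The decreases of the 7 were then smaller, with log2FC values from -1.30 (FASN) to -0.38 (ACACB), in place of -1.45 and -0.53. For the same 7 genes, every CJ28 library lay below every VEH library, which held for 32.7% of all tested genes. The summed TPM of the 10 genes was 152 ± 4.21 in VEH (SD, n = 4), 86.3 ± 3.42 in CJ28 and 143 ± 2.62 in MET, so that CJ28 held 56.9% of the VEH sum.

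**Figure D2:**
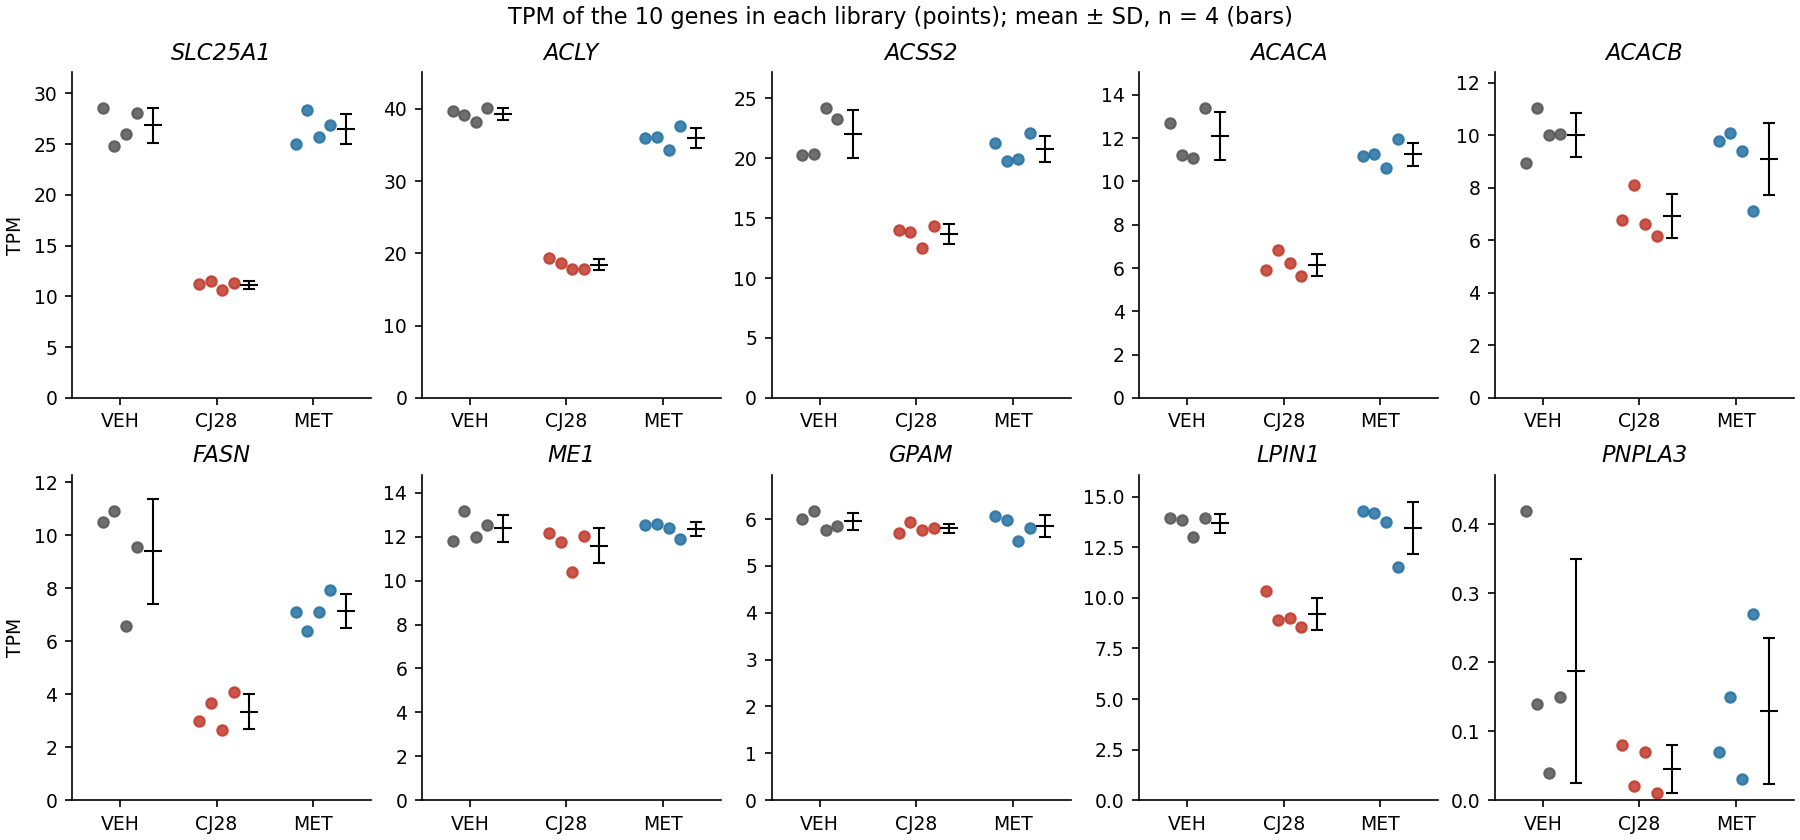
TPM (y axis, from 0) of the 10 genes in each of the 12 libraries, with group on the x axis; points are libraries and bars beside them the mean ± SD of 4. In 7 panels all CJ28 points lie below all VEH points, while ME1 and GPAM overlap and PNPLA3 stays at or below 0.42 TPM.

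Positions of genes, here and below, are those deposited with the TPM values. The citrate carrier gene SLC25A1 (ENSG00000100075.10, chromosome 22, 19175581 to 19178739 on GRCh38, minus strand) had 28.51, 24.84, 25.95 and 28.10 TPM in VEH and 11.18, 11.52, 10.61 and 11.32 TPM in CJ28. In MET it had 24.97, 28.34, 25.72 and 26.90 TPM. The CJ28 values lay in a narrow band at 41.6% of the VEH mean, and MET and VEH overlapped over most of their ranges. With CJ28 its log2FC relative to VEH was -1.26 (SE 0.05, adjusted p = 1.1e-09 in limma), and 3.62% of all tested genes had a lower value.

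ACLY (ENSG00000131473.17, chromosome 17, 41866917 to 41930542, minus strand), which splits citrate, was the most abundant of the 10 genes in all 3 groups. It had 39.65, 39.11, 38.20 and 40.06 TPM in VEH and 19.36, 18.65, 17.84 and 17.82 TPM in CJ28. In MET the values were 35.94, 36.14, 34.24 and 37.67 TPM. CJ28 stood at 46.9% of VEH, which is a log2FC of -1.09 (SE 0.04, adjusted p = 2.0e-10 in limma). All 4 MET libraries were also below all 4 VEH libraries, by a much smaller step. The lncRNA AC125257.2 overlaps ACLY on the opposite strand, and its mean level was 15.8 TPM for VEH, 4.56 for CJ28 and 10.7 for MET. The libraries were stranded, but whether the quantification used the strand is not given in the sources used here, so reads of the 2 genes may not be told apart.

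ACSS2 (ENSG00000131069.20, chromosome 20, 34872146 to 34927962, plus strand), which activates acetate, had 20.26, 20.33, 24.15 and 23.29 TPM in VEH and 14.00, 13.88, 12.50 and 14.37 TPM in CJ28. In MET it had 21.27, 19.75, 19.97 and 22.10 TPM. The CJ28 mean was 62.2% of the VEH mean, or a log2FC of -0.68 (SE 0.07, adjusted p = 2.7e-06 in limma). The ratio of ACLY to ACSS2 within a library, which no scaling between libraries can change, was 1.80 ± 0.177 in VEH (SD, n = 4), 1.35 ± 0.0799 in CJ28 and 1.73 ± 0.0643 in MET. Every CJ28 ratio lay below every VEH ratio, a log2 difference of -0.41 (p = 0.029 by a two-sided exact permutation test, which cannot go lower with 4 libraries per group). Adjusted over the 9 tests of ratios that were made, the exact permutation test gave p = 0.0643, above the threshold. The separation was already complete, so a larger difference of this ratio could not have lowered either value. The genes of the citrate and the acetate branch thus both fell, and the ratio between them was lower in 4 of 4 CJ28 libraries without passing the correction.

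Both acetyl-CoA carboxylase genes were lower with CJ28. ACACA (ENSG00000278540.5, chromosome 17, 37084992 to 37406836, minus strand) had 12.71, 11.23, 11.08 and 13.37 TPM in VEH, 5.92, 6.81, 6.23 and 5.62 TPM in CJ28, and 11.18, 11.28, 10.62 and 11.94 TPM in MET. The CJ28 libraries were at 50.8% of the VEH mean (log2FC -0.96, SE 0.07, adjusted p = 2.4e-07 in limma). ACACB (ENSG00000076555.15, chromosome 12, 109116595 to 109268226, plus strand) had 8.97, 11.03, 10.03 and 10.04 TPM in VEH, 6.78, 8.11, 6.63 and 6.17 TPM in CJ28, and 9.80, 10.10, 9.42 and 7.11 TPM in MET. Its decrease to 69.1% of VEH was the smallest of the 7 (log2FC -0.53, SE 0.11, adjusted p = 0.0015 in limma), and the fourth MET library fell among the CJ28 values. The ratio of ACACA to ACACB was 1.22 ± 0.187 in VEH (SD, n = 4), 0.891 ± 0.0436 in CJ28 and 1.27 ± 0.276 in MET. ACACA was thus the more abundant carboxylase transcript per length in all VEH and MET libraries, and ACACB in all 4 CJ28 libraries. The log2 difference of the ratio was -0.44 for CJ28 against VEH (exact permutation p = 0.029, adjusted p = 0.0643 over the 9 tests).

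FASN (ENSG00000169710.9, chromosome 17, 82078338 to 82098294, minus strand) had 10.51, 10.93, 6.57 and 9.55 TPM in VEH and 2.99, 3.67, 2.64 and 4.09 TPM in CJ28. In MET it had 7.12, 6.40, 7.12 and 7.93 TPM. It showed the largest decrease of the 9 genes, to 35.6% of the VEH mean, and 2.19% of all tested genes had a lower log2FC. It was also the most variable of the 9 in VEH, with a coefficient of variation of 20.9%, because the third VEH library was low. The log2FC with CJ28 was -1.45 (SE 0.16, 95% interval -1.81 to -1.10, adjusted p = 7.7e-06 in limma). The ratio of FASN to ACACA was 0.777 ± 0.162 in VEH (SD, n = 4), 0.549 ± 0.129 in CJ28 and 0.635 ± 0.0472 in MET, and the CJ28 and VEH ranges overlapped (two-sided exact permutation test, p = 0.0857, adjusted p = 0.154). A larger decrease of FASN than of ACACA was therefore not detectable with these libraries.

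**Figure D3:**
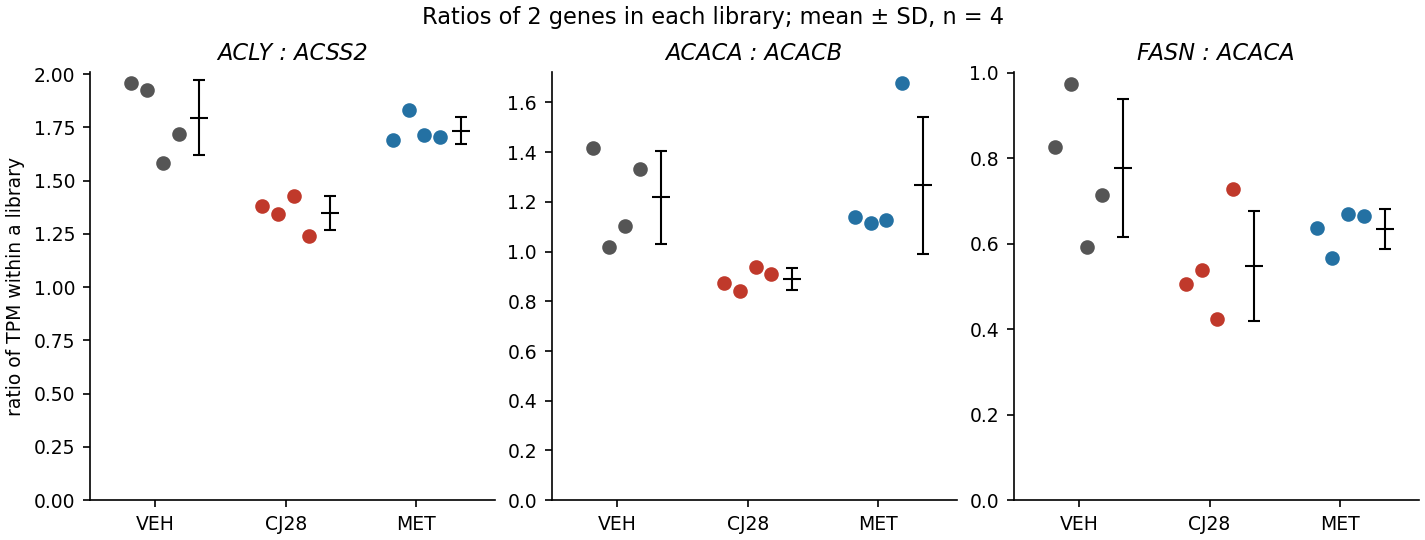
Ratio of the TPM of 2 genes within each library (y axis, from 0) by group (x axis); points are libraries and bars the mean ± SD of 4. The CJ28 points lie below all VEH points for ACLY to ACSS2 and for ACACA to ACACB, and overlap with them for FASN to ACACA; 1 MET library stands at 1.68 for ACACA to ACACB.

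ME1 (ENSG00000065833.9, chromosome 6, 83210402 to 83431051, minus strand) had 11.83, 13.19, 11.99 and 12.56 TPM in VEH, 12.19, 11.76, 10.41 and 12.05 TPM in CJ28, and 12.53, 12.58, 12.40 and 11.88 TPM in MET. The groups overlapped, and CJ28 differed from VEH by a log2FC of -0.10 (95% interval -0.22 to 0.02, adjusted p = 0.158 in limma). GPAM (ENSG00000119927.14, chromosome 10, 112149865 to 112215377, minus strand) differed least between CJ28 and VEH, with 6, 6.18, 5.77 and 5.85 TPM in VEH, 5.71, 5.93, 5.77 and 5.82 TPM in CJ28, and 6.07, 5.98, 5.54 and 5.82 TPM in MET. Its log2FC was -0.03 (95% interval -0.13 to 0.07, adjusted p = 0.550 in limma). Both genes turned in sign with the scaling: relative to the median of all genes, by median-of-ratios factors, ME1 was at 0.06 (adjusted p = 0.332) and GPAM at 0.12 (adjusted p = 0.0466, a call as higher), and over nuclear protein-coding genes alone they were at 0.11 (adjusted p = 0.0935) and 0.17 (adjusted p = 0.0096), all in limma. Over the nuclear protein-coding genes, 26.3% were called lower and 39.2% higher. A decrease of the size seen for ACSS2 or LPIN1 lay outside the intervals of both genes under all 3 scalings.

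LPIN1 (ENSG00000134324.11, chromosome 2, 11677595 to 11827409, plus strand) had 13.93, 13.83, 13.01 and 13.95 TPM in VEH, 10.32, 8.92, 9.02 and 8.55 TPM in CJ28, and 14.31, 14.19, 13.73 and 11.55 TPM in MET. CJ28 was at 67.3% of VEH (log2FC -0.57, SE 0.07, adjusted p = 2.8e-05 in limma), and even the lowest MET library stayed above all CJ28 libraries. PNPLA3 (ENSG00000100344.11, chromosome 22, 43923792 to 43964488, plus strand) was listed at 0.42, 0.14, 0.04 and 0.15 TPM in VEH, 0.08, 0.02, 0.07 and 0.01 TPM in CJ28, and 0.07, 0.15, 0.03 and 0.27 TPM in MET. These values are close to the 2 decimals of the table, the groups overlapped, and a difference between CJ28 and VEH was not detectable (two-sided exact permutation test, p = 0.0857). PNPLA3 also overlaps SAMM50, a gene on the same strand with mean TPM of 8.82 to 9.55 by group.

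TPM is corrected for length, so levels can be ordered between genes. In VEH the order of mean TPM was ACLY (39.3), SLC25A1 (26.9), ACSS2 (22.0), LPIN1 (13.7), ME1 (12.4), ACACA (12.1), ACACB (10.02), FASN (9.39), GPAM (5.95) and PNPLA3 (0.188). The ranges over the 4 libraries overlapped between the neighbours LPIN1 and ME1, ME1 and ACACA, and ACACB and FASN. The order and the overlapping neighbours were the same in MET. In CJ28 the order was ACLY (18.4), ACSS2 (13.7), ME1 (11.6), SLC25A1 (11.2), LPIN1 (9.20), ACACB (6.92), ACACA (6.15), GPAM (5.81), FASN (3.35) and PNPLA3 (0.0450). There ME1 and SLC25A1, ACACB and ACACA, and ACACA and GPAM overlapped. By mean TPM, SLC25A1 had moved from the second to the fourth place, though not separated from ME1, and FASN to below GPAM.

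With MET, none of the 9 genes differed from VEH at an adjusted p under 0.05 in limma, where 0.00595% of all tested genes (1 gene) were called. The smallest adjusted p among the 9 was 0.933, and 2 of them, ACLY and FASN, had an unadjusted p under 0.05, which held for 5.20% of all tested genes. All 9 log2FC values were below 0, as were 61.1% of those of all tested genes, with a median of -0.08 over the 9 and -0.03 over all. After median-of-ratios scaling 5 of the 9 were below 0, those of ACLY, ACSS2, ACACA, ACACB and FASN. MET stood at 91.7% of the VEH mean for ACLY (log2FC -0.13, 95% interval -0.21 to -0.04, unadjusted p = 0.0071 and adjusted p = 0.933 in limma). Complete separation downward, as seen for ACLY, occurred in 2.03% of all tested genes. FASN stood at 76.1% (log2FC -0.37, 95% interval -0.72 to -0.01, unadjusted p = 0.0427 and adjusted p = 0.933 in limma). Without the third VEH library, which was within the MET range, the FASN value was -0.53, and without each of the other libraries it lay between -0.42 and -0.29. SLC25A1 stood at 98.6% of VEH (95% interval of the log2FC -0.14 to 0.10), ACSS2 at 94.4% (-0.23 to 0.07), ACACA at 93.0% (-0.26 to 0.06) and ACACB at 90.9% (-0.39 to 0.10). ME1 stood at 99.6% (interval -0.12 to 0.12), GPAM at 98.4% (-0.12 to 0.08) and LPIN1 at 98.3% (-0.19 to 0.13).

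**Figure D4:**
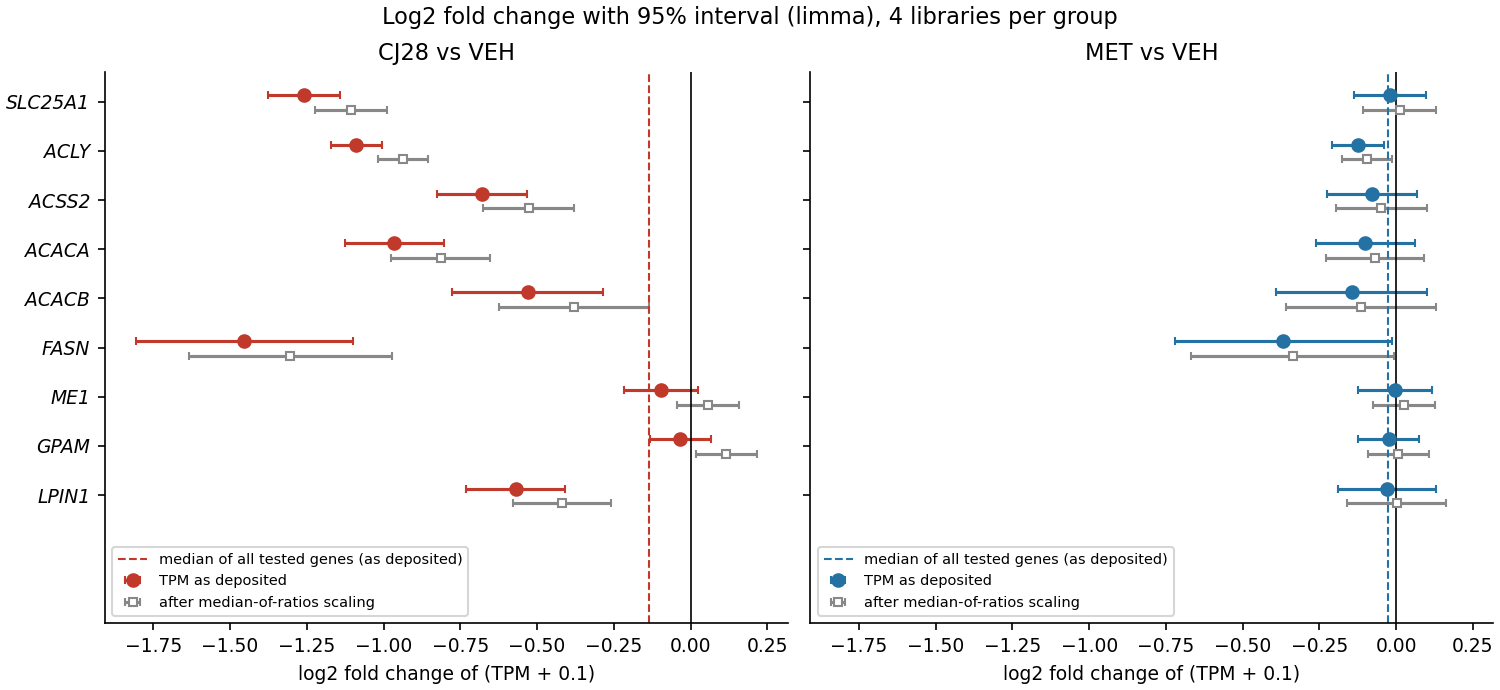
Log2 fold change of TPM + 0.1 (x axis) with its 95% interval from limma for 9 genes (rows), CJ28 against VEH on the left and MET against VEH on the right, from 4 libraries per group. Filled circles are TPM as deposited, open squares follow median-of-ratios scaling, and the dashed line is the median of all tested genes; under CJ28 the 7 called genes lie between -1.45 and -0.53, and under MET the 9 lie between -0.37 and 0.00.

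Compared directly at the equal dose of 30 µM and time of 24 h, CJ28 was lower than MET in the same 7 genes (adjusted p under 0.05 in limma, the largest being 0.0117 for ACACB), against 34.6% of all tested genes called lower. Every CJ28 library lay below every MET library for 6 of the 7, all but ACACB, and for 31.3% of all tested genes. The comparisons with VEH and with MET share the CJ28 libraries. The log2 differences between CJ28 and MET were -1.24 for SLC25A1, -0.96 for ACLY, -0.60 for ACSS2, -0.86 for ACACA, -0.39 for ACACB, -1.09 for FASN and -0.54 for LPIN1, with standard errors of 0.04 to 0.16. For ME1 the difference was -0.09 (95% interval -0.21 to 0.03) and for GPAM -0.01 (95% interval -0.11 to 0.09), with scaling-dependent signs in both cases. ACACB lost its call after scaling, with -0.26 (adjusted p = 0.0627 in limma) by median-of-ratios factors and -0.20 (adjusted p = 0.118 in limma) over nuclear protein-coding genes. The other 6 kept theirs, where 26.1% and 25.3% of all genes were called lower. Over nuclear protein-coding genes, of which 40.3% were called higher, GPAM was called higher in CJ28 than in MET (0.18, adjusted p = 0.0068 in limma). The ACLY to ACSS2 ratio was lower in CJ28 than in MET by 0.36 on the log2 scale and the ACACA to ACACB ratio by 0.49 (exact permutation p = 0.029 and adjusted p = 0.0643 for each).

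Partner genes of the pathway were followed in 5 lists with 87 genes, of which 75 were tested. With CJ28, 30 were lower, 15 higher and 30 not called, against 37.1% lower and 19.9% higher among all tested genes, so that the partner genes as a whole stood near the background. After median-of-ratios scaling 25 were lower and 24 higher, against 26.3% and 29.3% of all tested genes. Both counts of lower genes include GPD1 and MLXIPL, which passed the filter only through VEH and MET libraries. With MET none of the 75 was called in limma, against 0.00595% of all tested genes, and 2 had an unadjusted p under 0.05, against 5.20%. The lists are described by counts, since they were chosen with results known, and each count below is to be set beside these shares over all genes.

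Among the 25 tested genes of acetyl-CoA, malonyl-CoA and acyl-CoA handling, 7 were lower and 6 higher with CJ28, and the median log2FC was 0.07 against -0.13 for all genes. After median-of-ratios scaling the split turned to 6 lower and 11 higher. The largest decrease was that of ACSS1, the mitochondrial acetyl-CoA synthetase, from 14.5 ± 1.18 TPM with vehicle to 5.09 ± 0.356 with CJ28 (SD, n = 4; log2FC -1.49, adjusted p = 1.4e-09 in limma). The largest increase was that of PRKAB2, a regulatory subunit of AMP-activated protein kinase, which phosphorylates and inhibits both carboxylases, from 4.29 ± 0.391 to 11.2 ± 0.464 TPM (log2FC 1.37, adjusted p = 5.1e-09 in limma). Among the 13 genes listed for NADPH supply, of which ME2, ME3 and NNT are mitochondrial, 4 were lower and 4 higher (2 and 5 after median-of-ratios scaling), and the median log2FC was -0.05. The increases were led by IDH1, the cytosolic isocitrate dehydrogenase, from 28.0 ± 0.846 to 53.7 ± 1.74 TPM (log2FC 0.94, adjusted p = 1.3e-09 in limma). The decreases were led by PGD of the pentose phosphate pathway, from 23.1 ± 3.78 to 13.5 ± 3.05 TPM (log2FC -0.79, adjusted p = 7.4e-04 in limma).

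In glycerolipid assembly, 8 of 15 tested genes were lower and 2 higher (7 and 3 after median-of-ratios scaling), with a median log2FC of -0.26. GPAT3, which like GPAM acylates glycerol 3-phosphate but at the endoplasmic reticulum, rose from 2.54 ± 0.342 to 10.8 ± 0.431 TPM (SD, n = 4; log2FC 2.05, adjusted p = 1.6e-09 in limma). GPD1, which makes glycerol 3-phosphate, had the lowest log2FC of the list (-0.94), at 0.478 ± 0.110 TPM in VEH and 0.203 ± 0.0759 in CJ28. It passed the filter only through VEH and MET libraries, with at most 0.31 TPM in CJ28, so its call is no support for a decrease and no p is given. Of the 9 tested genes of the PNPLA family and triglyceride lipolysis, 3 were lower and 1 higher, against 37.1% and 19.9% of all tested genes. After median-of-ratios scaling the counts were the same, against 26.3% and 29.3% of all tested genes. The median log2FC of this list was -0.23. MGLL, monoacylglycerol lipase, fell from 3.95 ± 0.186 to 1.82 ± 0.442 TPM (log2FC -1.10, adjusted p = 7.7e-06 in limma), and PNPLA6, a lysophospholipase, rose from 3.25 ± 0.114 to 5.67 ± 0.974 TPM (log2FC 0.77, adjusted p = 1.0e-04 in limma). Of 13 tested transcriptional regulators of lipogenesis, 8 were lower and 2 higher (7 and 4 after median-of-ratios scaling), with a median log2FC of -0.36. The 8 include MLXIPL, which like GPD1 passed the filter only through VEH and MET libraries. SREBF1 had the largest decrease, from 19.7 ± 1.56 to 0.955 ± 0.199 TPM (log2FC -4.25, adjusted p = 2.9e-11 in limma). MLX, the partner of the carbohydrate-responsive factor, rose from 12.3 ± 0.570 to 15.6 ± 0.981 TPM (log2FC 0.34, adjusted p = 9.5e-04 in limma).

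**Figure D5:**
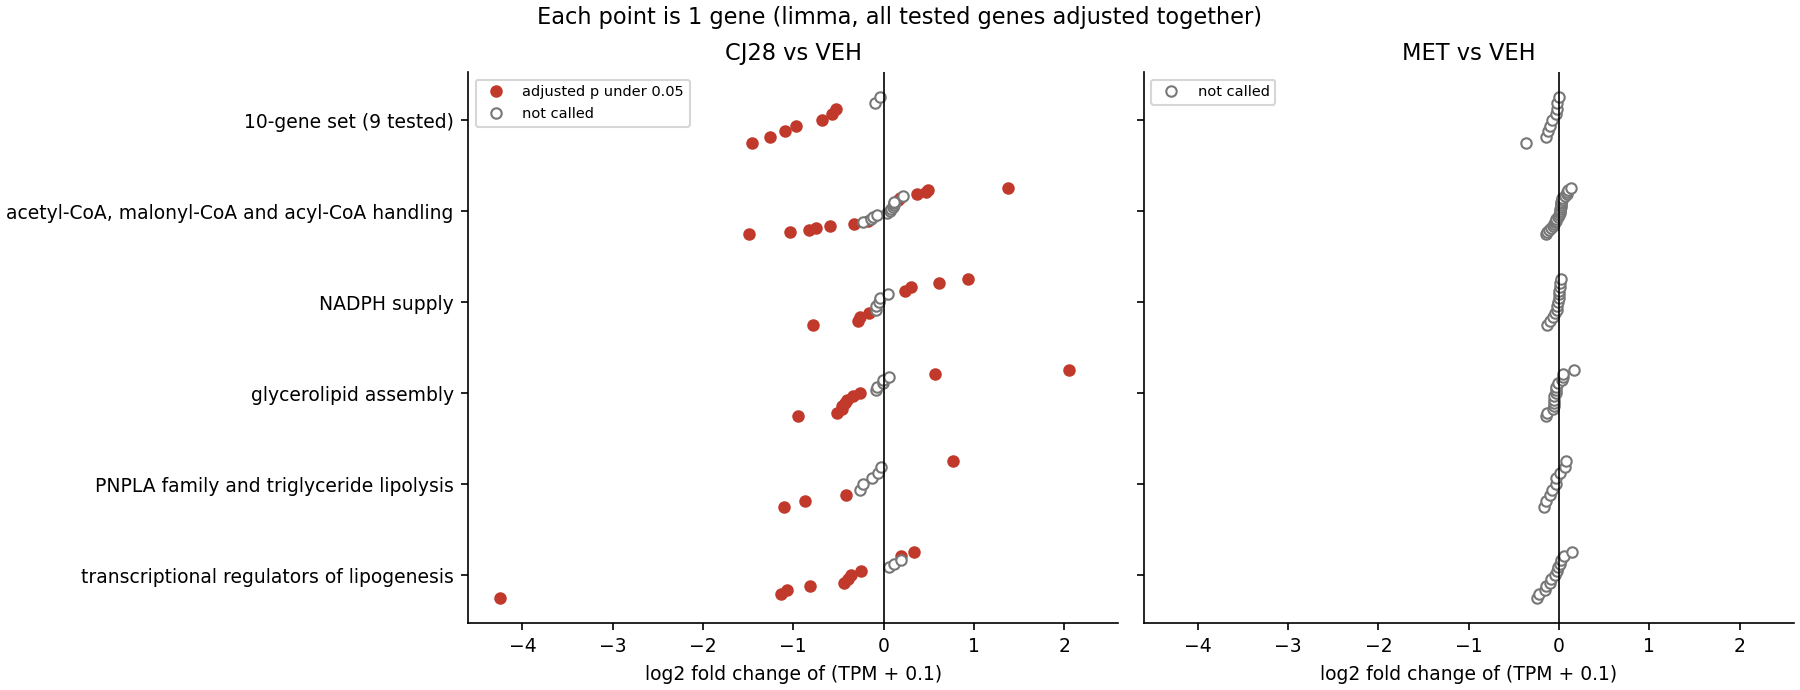
Log2 fold change of TPM + 0.1 (x axis) of each tested gene in the 10-gene set and in 5 lists of partner genes (rows), CJ28 against VEH on the left and MET against VEH on the right; filled points had an adjusted p under 0.05 in limma. Called genes lie on both sides of 0 in every partner list under CJ28, with SREBF1 at -4.25 and GPAT3 at 2.05 as the extremes, and none is filled under MET. The filled points under CJ28 include GPD1 and MLXIPL, which passed the filter only through VEH and MET libraries.

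Paralogs of the 10 genes, singled out after their values were seen, moved in both directions with CJ28. GPAT4 fell from 32.2 ± 1.84 to 23.3 ± 1.07 TPM (SD, n = 4; log2FC -0.47, adjusted p = 2.1e-05 in limma) while GPAT3 rose, and the summed TPM of GPAM, GPAT2, GPAT3 and GPAT4 was 40.8 ± 1.87 in VEH, 39.9 ± 1.10 in CJ28 and 40.2 ± 2.69 in MET. The log2FC values of LPIN2 and LPIN3 were -0.08 and -0.07 (adjusted p = 0.351 and 0.551 in limma), and the lipin sum was 21.7 ± 0.543 in VEH and 16.8 ± 0.645 in CJ28. The mitochondrial malic enzymes ME2 and ME3 rose, with log2FC values of 0.30 and 0.62 (adjusted p = 5.7e-04 and 4.7e-06 in limma). The 3 malic enzyme genes summed to 27.6 ± 1.08 TPM for VEH, 32.5 ± 1.65 for CJ28 and 27.6 ± 0.915 for MET. ACSS3 rose from 3.07 ± 0.162 to 4.38 ± 0.518 TPM (log2FC 0.49, adjusted p = 0.0025 in limma), and the sum of ACSS1, ACSS2 and ACSS3 was 39.6 ± 2.87 TPM with vehicle and 23.2 ± 1.63 with CJ28. These sums were chosen after the values were seen and were not tested.

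Over the 12 libraries, the genes outside the set whose log2(TPM + 0.1) followed FASN most closely, out of 13297 whose mean reached 1 TPM, were DIDO1 (Pearson's r = 0.989), ASTN1 (0.984), ATP6V0D1 (0.981), EPHB2 (0.981) and PDE10A (0.980). Their mean TPM in VEH, CJ28 and MET was 6.26, 4.33 and 5.68 for DIDO1 and 15.9, 11.6 and 14.6 for ASTN1. Each of the 5 was at its lowest VEH value in the third VEH library, as FASN was. Within the set, FASN was most like ACLY (r = 0.933) and least like GPAM (r = 0.422), whereas SLC25A1 and ACLY had r = 0.990. These are descriptions over 12 libraries in 3 groups, so differences between groups enter every r, and no p is given.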

How the data were processed

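Ribosomal RNA-depleted, stranded, paired-end libraries of 12 NCI-H295R cultures (4 VEH, 4 CJ28, 4 MET) had been sequenced. Adaptors had been trimmed with Cutadapt (version 2.8), reads aligned to GRCh38 with STAR (version 2.7.10b), and values per gene derived with RSEM (version 1.3.3), per the study's methods and the submitters' processing notes. The authors deposited TPM, given to 2 decimals, and each library sums to 1000000. The annotation release is not given in the sources used here. The study's count model was not usable, since TPM holds no counts and no depth. How reads that match several genes were shared out is not given there either, so values of near-identical genes are uncertain.

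From TPM, values were put on the scale log2(TPM + 0.1) and fitted by limma (3.58.1, in R 4.3.3; eBayes with a trend) for genes that reached 0.5 TPM in 4 or more libraries, all 12 libraries in 1 fit without covariates. Tests were two-sided, with Benjamini-Hochberg adjustment over all tested genes. Fold changes on this scale understate changes of low genes. Ratios of 2 genes were compared by exact permutation tests (scipy version 1.17.1), for which 0.029 is the smallest p. The fit was tested on simulated data. Groups and replicate numbers came from sample titles. The design text calls the samples biological replicates, without saying how cultures were separated.

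Named genes are the 10 members, the largest increase and decrease called in each partner list, and the 5 genes most correlated with FASN. Paralogs of the members, overlapping genes and single marker genes were named outside this rule, after their values were seen. Members and lists were chosen with earlier results of these data known. A further marker gene of the adrenal medulla is not reported here. Promoter sequences are those of RefSeq (GRCh38.p14). Alternatives were median-of-ratios scaling, rescaling TPM to nuclear protein-coding genes, another pseudocount (1 or 0.01), no filter on low values, a filter on the mean (1 TPM), a block for the replicate number, separate fits of each pair of groups, a fit with no variance trend, and omission of each library.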

Additional observations from a re-analysis of the deposited data

Results flagged for a closer look

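Of 42 groups of 4 libraries examined (the 10 genes, their sum and 3 ratios in each treatment group), 2 held a library that stood far from the other 3, where chance alone would mark about 1 group in 20. For LPIN1 in VEH, the third library had 13.01 TPM against 13.83 to 13.95 in the others, a gap of 0.872 of the group's range. For the ratio of ACACA to ACACB in MET, the fourth library stood at 1.68 against 1.12 to 1.14 in the others, a gap of 0.957 of the range. In that library ACACB was 7.11 TPM, below the 9.42 to 10.10 TPM of the other MET libraries, and ACACA was 11.94 TPM, the highest of the 4. Without it, the log2 fold change of ACACB for MET against VEH was -0.03 in place of -0.15, the difference between CJ28 and MET was -0.50 in place of -0.39, and the log2 difference of the ratio between CJ28 and MET was -0.34 in place of -0.49.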

How the results depend on the processing

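All 7 genes called lower in CJ28 than in VEH kept that call and direction under each alternative, including the omission of each library, and none of the 9 tested genes was called for MET under any of them. PNPLA3 was in the fit only with all genes above 0, where it was not called. ME1 and GPAM changed sign with the scaling. After median-of-ratios scaling their log2 fold changes were 0.056 and 0.12 for CJ28 against VEH, and 0.029 and 0.11 for CJ28 against MET, and over nuclear protein-coding genes they were 0.11 and 0.17, and 0.10 and 0.18. For MET against VEH, where values lay near 0, median-of-ratios scaling gave 0.012 for SLC25A1, 0.027 for ME1, 0.0067 for GPAM and 0.0014 for LPIN1, and the nuclear protein-coding scale gave 0.0099 for ME1. With single libraries left out, signs also turned for MET against VEH in SLC25A1 (-0.056 to 0.010), ME1 (-0.026 to 0.026), GPAM (-0.041 to 0.0019) and LPIN1 (-0.061 to 0.041), and for CJ28 against MET in GPAM (-0.036 to 0.0073). The log2 ratio of the summed TPM moved after scaling from -0.81 to -0.66 for CJ28 against VEH and from -0.72 to -0.60 for CJ28 against MET. By their construction these scalings multiply the TPM of every gene kept in a library by the same factor. Because 0.1 was added afterwards, the shift on the log2 scale depends somewhat on the level of the gene. Of all genes, 1 was called for MET in limma, with 874 at an unadjusted p under 0.05; the count was 0 with a pseudocount of 1 or 0.01 or a mean TPM of at least 1, 5 with all genes above 0, 2 over nuclear protein-coding genes and 1 to 2 with single libraries left out (2 without the fourth MET or the fourth VEH library). For CJ28 against VEH, scaling moved the split of all called genes from 3346 higher and 6231 lower to 4925 and 4430 by median-of-ratios factors, and to 4907 and 3294 over nuclear protein-coding genes. Deviations from the group means were not shared between libraries of equal replicate number (correlations of -0.12 to 0.039), so the numbers were not taken as pairs. In a fit with a replicate block, 9546 genes were called for CJ28 against VEH, against 9577 without it, 7 of the 9 tested genes were again called for CJ28 and none for MET. The reads behind low values such as those of PNPLA3 are unknown, which limits what can be said of them.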
